A study of Homo sapiens with 6 samples.

Results

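The KLF transcription factors were followed in K562 cells exposed to cortistatin A (CA), which blocks CDK8 and CDK19, the kinases of the Mediator complex. The members were 10 genes given by name: KLF1, KLF2, KLF3, KLF4, KLF6, KLF9, KLF10, KLF11, KLF13 and KLF16. Every probe set whose platform annotation held exactly 1 of these symbols was taken, which gave 28 of the 54613 probe sets other than controls, and 10 of the 19775 named genes. The CA group consisted of 3 wells of K562, an established chronic myelogenous leukaemia line, kept with 25 nM CA for 3 h. The DMSO group consisted of 3 wells given the vehicle for the same 3 h. Both groups came from the same unmodified line, plated at 500000 to 800000 cells per mL, and RNA of each well was hybridised to 1 Affymetrix U133 Plus 2.0 array. A single dose, a single time and a single cell line were measured, and the spread among replicates of a group set the error. The sample titles number the replicates 1 to 3 and do not say whether these were separate experiments.

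KLF proteins bind GC-rich and CACCC-type DNA through zinc fingers at their carboxyl end, while the remainder of the protein recruits activators or repressors. KLF1 is the red cell factor that binds CACCC boxes of globin genes, and KLF3 is a repressor that works through CtBP proteins and is itself activated by KLF1 in mouse red cell precursors. KLF9, KLF10, KLF11, KLF13 and KLF16 form a branch known for binding the SIN3A corepressor, and KLF10 and KLF11 are also called TGF-beta inducible early genes. KLF2 and KLF4 act in quiescent blood and vessel cells and can be induced by the kinase ERK5 through MEF2 factors. KLF6 is widely expressed and was described as an early injury-response gene in rat liver.

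Promoter sequences from RefSeq (build GRCh38.p14) were used for 8 of the 10 genes, all except KLF3 and KLF10. The 250 bases upstream of the annotated start are shown for KLF6, KLF11 and KLF13, whose probe sets had the smallest p values in the comparison below. Letters run 5′ to 3′ on the strand of the gene, and capitals mark the GC box GGGCGG on either strand, a sequence type that SP and KLF proteins bind. KLF6 lies at chr10:3785210-3785459 on the minus strand, KLF11 at chr2:10043579-10043828 on the plus strand and KLF13 at chr15:31326585-31326834 on the plus strand.
KLF6: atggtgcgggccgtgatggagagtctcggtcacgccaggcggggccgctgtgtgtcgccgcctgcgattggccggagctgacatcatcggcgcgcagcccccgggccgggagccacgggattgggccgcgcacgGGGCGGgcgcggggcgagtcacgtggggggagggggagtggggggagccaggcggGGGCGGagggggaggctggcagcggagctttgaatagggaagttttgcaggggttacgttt
KLF11: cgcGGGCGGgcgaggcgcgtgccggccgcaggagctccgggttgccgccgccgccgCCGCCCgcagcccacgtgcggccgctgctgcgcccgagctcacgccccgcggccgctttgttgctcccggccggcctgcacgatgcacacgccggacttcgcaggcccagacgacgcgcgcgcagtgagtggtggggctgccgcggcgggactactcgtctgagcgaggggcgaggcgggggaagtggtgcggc
KLF13: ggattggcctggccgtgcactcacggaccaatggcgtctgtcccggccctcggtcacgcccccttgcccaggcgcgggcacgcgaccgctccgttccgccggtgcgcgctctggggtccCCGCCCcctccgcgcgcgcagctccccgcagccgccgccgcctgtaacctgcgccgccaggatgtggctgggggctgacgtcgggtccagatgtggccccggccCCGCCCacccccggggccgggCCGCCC
KLF1 is shown for contrast at chr19:12887202-12887451, minus strand, as the red cell member of the family. Here capitals mark GATA on either strand, the core letters read by GATA factors.
KLF1: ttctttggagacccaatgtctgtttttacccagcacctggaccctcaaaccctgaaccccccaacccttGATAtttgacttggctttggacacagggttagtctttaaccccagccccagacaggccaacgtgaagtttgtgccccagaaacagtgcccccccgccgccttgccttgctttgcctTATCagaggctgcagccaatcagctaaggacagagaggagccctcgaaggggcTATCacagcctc

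The upstream stretch of KLF6 held 2 GC boxes, that of KLF11 held 2 and that of KLF13 held 3, whereas KLF1 held 0 GC boxes and 3 GATA matches. KLF11 had a second annotated start, whose upstream stretch held 6 GC boxes and 1 match to TGACGTCA, the element read by CREB and ATF factors. Over the 9 KLF stretches, GGGCGG occurred in 7, CACCC in 2, GATA in 2, TGACGTCA in 1 and the STAT-type TTCNNNGAA in 0, each counted on both strands. The CACCC match of KLF13 overlapped a GC box. Over all 35116 RefSeq promoters of the same length the shares were 42.6% for GGGCGG, 54.7% for CACCC, 45.6% for GATA, 1.65% for TGACGTCA and 6.57% for TTCNNNGAA. These are matches of letters and were not compared with binding data.

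Values below are RMA log2 signals, in which 1 unit is a doubling of fluorescence. The level of 1 probe set cannot be set against that of another, so levels are compared only between arrays. A probe set was tested where its 6-array mean reached 3.49, the median over probe sets, which left 27307. Array medians were 3.47 to 3.52 and each pair of arrays correlated at 0.997. CA array 1 lay far from the other 5 along the second principal component, at 19.1, with -4.99 to -0.34 for CA arrays 2 and 3 and -7.20 to -0.96 for the DMSO arrays, so results are also given without it. The difference between 3' and 5' probe sets, a sign of how labelling ran along the RNA, was smaller on every CA array than on every DMSO array for actin (mean 1.21 in CA, 1.45 in DMSO) and for 3 of the 4 added control RNAs. The exact 2-sided permutation p was 0.1 for each of these 4, the smallest that 3 against 3 arrays allow (0.15 after adjustment over 6 controls). The part of labelling in the KLF values was not tested. As markers of K562, the embryonic globin genes HBE1 (13.3 in both groups) and HBZ, and the red cell factors GATA1 and TAL1, were all above the filter. TAL1 itself had 9.60 in CA and 9.38 in DMSO with no overlap of arrays, a change of 0.22 (limma adjusted p = 0.232). Of 14 markers of T cells, B cells, monocytes, epithelium and fibroblasts, 8 were above the filter, among them CD3D (9.05 in CA, 9.08 in DMSO) and EPCAM (10.4 in CA, 10.5 in DMSO), and 0 were called. The B cell gene CD79A, at 4.77 in CA and 4.62 in DMSO, was the 1 of these with an unadjusted limma p under 0.05 (0.0389), and the part of other cell types in the KLF values was not tested.

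No KLF probe set passed the test after adjustment. Of the 28 probe sets, 21 were bright enough to be tested, and 0 of them were called at a limma adjusted p under 0.05, where 0.0952% of all tested probe sets were called (26). The smallest adjusted p in the family was 0.252. When the variance model was allowed to depend on signal level, 1.04% of all tested probe sets were called, and again 0 of the KLF ones, with KLF6 208961_s_at lowest at an adjusted p of 0.0993. The members were chosen with earlier results of these data known, so the shares among them are a description only. Before adjustment, 7 of the 21 (33.3%) had a p under 0.05, against 9.31% of all tested probe sets. Of these 7, 5 were higher in CA, a direction that 4.55% of all probe sets took at this p, and 2 were lower, against 4.76%. The 7 belong to 5 genes: KLF3, KLF6 and KLF11 with higher signal in CA, and KLF10 and KLF13 with lower signal. Probe sets of 1 gene read transcripts of that gene, so their counts are not counts of independent events. Read from the brightest tested probe set of each gene, 3 of the 9 KLF genes had an unadjusted limma p under 0.05. The share over all measured genes was 8.61%. Of these 3, 1 was higher in CA (KLF11) and 2 were lower (KLF10 and KLF13), so higher did not exceed lower there. With the tested probe sets of each gene averaged per array, changes were 0.14 for KLF3, 0.19 for KLF6, 0.24 for KLF11 and -0.21 for KLF10. The 95% confidence intervals of these averages left out 0, while those of the other genes, KLF13 (-0.09) among them, held 0. In that fit 9.76% of all 12810 genes had an unadjusted limma p under 0.05. The limma adjusted p of KLF3, KLF6, KLF10 and KLF11 there was 0.288 to 0.402. Whether higher exceeded lower per gene thus depended on how probe sets were summarised.

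The changes were small. Over the 21 probe sets the median CA minus DMSO change was 0.05 log2 units, against -0.01 over all tested probe sets. Its median size without regard to sign was 0.12, against 0.06 over all. The changes ran from -0.21 (KLF10) to 0.28 (a KLF6 probe set), and 17 of 21 (81%) were positive, against 46.5% of all tested probe sets. KLF3, KLF6 and KLF9 gave 12 of these 17, and by the brightest probe set of each gene 5 of 9 KLF genes were positive, against 43.5% of all measured genes. The median standard error (SE) of these changes was 0.07, so differences of this size are near the limit of what 3 wells a side resolve. In RNA from a whole well, a change in the share of cells and a change per cell cannot be told apart.

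**Figure D1:**
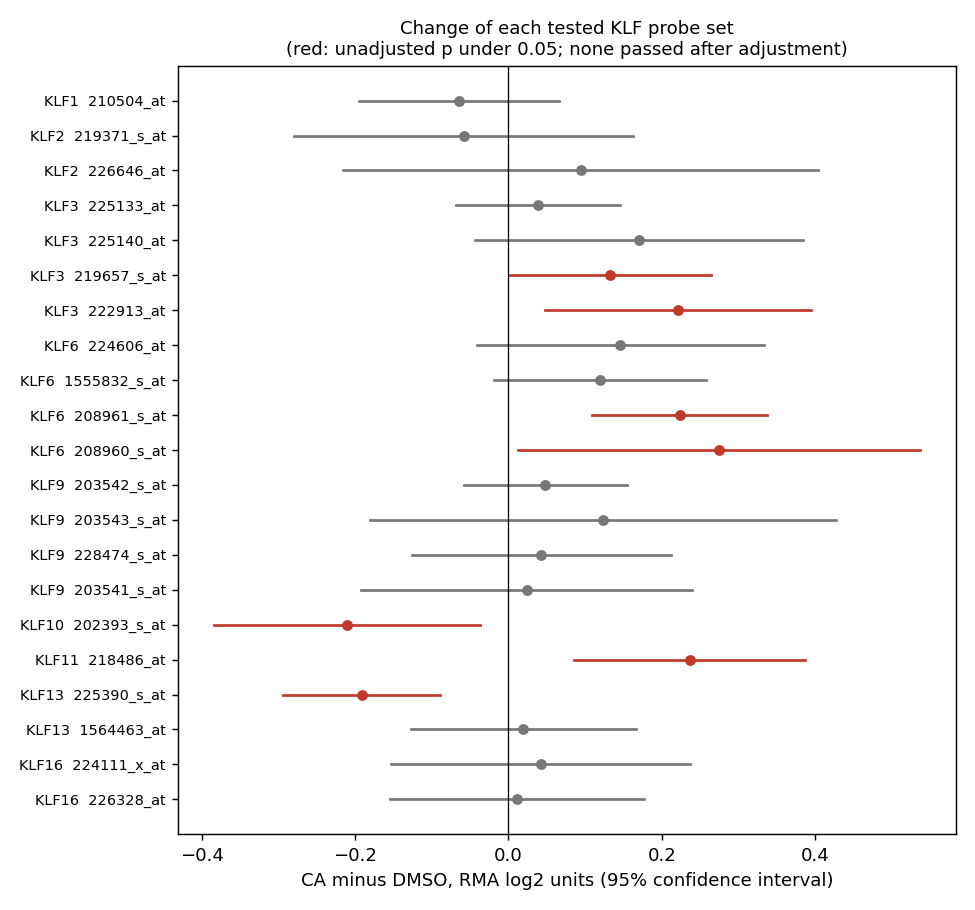
CA minus DMSO change of the 21 tested KLF probe sets in RMA log2 units, with 95% confidence intervals from limma (3 CA and 3 DMSO arrays). The 7 intervals in red, at unadjusted p under 0.05, leave out 0, with KLF3, KLF6 and KLF11 to the right and KLF10 and KLF13 to the left.

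KLF6 read higher in CA on all 4 tested probe sets. Probe set 208961_s_at read 6.84, 6.74 and 6.71 on the CA arrays and 6.53, 6.54 and 6.54 on the DMSO arrays. All CA arrays lay above all DMSO arrays, which were nearly identical to each other. The change was 0.22 (95% confidence interval 0.11 to 0.34), a 1.17-fold higher signal, with a limma p of 0.00264 and an adjusted p of 0.252. It ranked 286 of 27307 probe sets by p.

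The other KLF6 probe sets went the same way with more spread. Probe set 208960_s_at had 5.97, 5.71 and 5.74 in CA and 5.71, 5.35 and 5.53 in DMSO. Its groups touched, since DMSO array 1 lay within the CA range, and its change of 0.28 (0.01 to 0.54) had an adjusted p of 0.517 by limma. Probe set 1555832_s_at averaged 6.91 ± 0.09 in CA and 6.79 ± 0.04 in DMSO (SD, n = 3 each) with no overlap of arrays. The brightest probe set, 224606_at, averaged 7.20 ± 0.08 in CA and 7.05 ± 0.13 in DMSO, with overlap. The changes of these last 2 were 0.12 (-0.02 to 0.26) and 0.15 (-0.04 to 0.33). Without CA array 1 that of 1555832_s_at was 0.069, and without DMSO array 1 that of 224606_at was 0.22. With the 4 probe sets averaged per array, KLF6 changed by 0.19 (0.04 to 0.34; limma adjusted p = 0.402 over 12810 genes). The remaining KLF6 probe set, 211610_at, was below the filter at 3.26 in CA and 3.14 in DMSO.

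KLF11 and KLF10, the TGF-beta inducible pair, had changes of opposite sign, a contrast that was not itself tested. KLF11 is a repressor that recruits SIN3A, and its tested probe set 218486_at read 6.49, 6.40 and 6.43 in CA and 6.15, 6.32 and 6.14 in DMSO. The CA arrays all lay above the DMSO arrays, with DMSO array 2 the nearest. The change was 0.24 (0.09 to 0.39), or 1.18-fold higher, at a limma p of 0.00787 and an adjusted p of 0.343. A second KLF11 probe set was below the filter, at 2.70 in CA and 2.81 in DMSO.

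KLF10 had 1 probe set, 202393_s_at, with 7.30, 7.24 and 7.23 in CA and 7.47, 7.60 and 7.33 in DMSO. The CA arrays were the 3 lowest, but the gap to DMSO array 3 was small, and the DMSO arrays spread more widely (SD 0.13, against 0.04 in CA). The change was -0.21 (-0.38 to -0.04), or 1.16-fold lower in CA, at an adjusted p of 0.440 by limma. Without DMSO array 3 it was -0.28, and over all fits with 1 array left out it ranged from -0.28 to -0.15.

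KLF13, KLF9 and KLF16 belong to the same SIN3A-binding branch. KLF13 is known as a regulator of the chemokine CCL5 in T cells. Its brightest probe set, 225390_s_at, read 5.64, 5.60 and 5.62 in CA and 5.77, 5.82 and 5.84 in DMSO. The groups were well apart and each was tight, with a change of -0.19 (-0.29 to -0.09), or 1.14-fold lower, a limma p of 0.00335 and an adjusted p of 0.279. The other tested KLF13 probe set, 1564463_at, did not show this: it averaged 3.70 in CA and 3.68 in DMSO, a change of 0.020 (-0.13 to 0.17). It lay just above the filter, and the remaining 2 KLF13 probe sets lay just below it, with changes of -0.11 and -0.06. The lower KLF13 signal thus rests on 1 probe set.

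KLF9, known as a glucocorticoid and thyroid hormone induced factor, had 4 tested probe sets, with changes from 0.02 to 0.12. The highest, on 203543_s_at, was 0.0040 without CA array 1 and 0.037 without DMSO array 3, and 0.21 without DMSO array 2. The brightest, 203542_s_at, read 6.36, 6.36 and 6.34 in CA and 6.26, 6.29 and 6.36 in DMSO. CA lay within the upper part of the DMSO range, and the interval of the change, -0.06 to 0.15, leaves out shifts as large as those of KLF6 208961_s_at. KLF16, a repressor of the same branch, had changes of 0.04 (-0.15 to 0.24) on 224111_x_at and 0.01 (-0.15 to 0.18) on 226328_at. None of these 6 probe sets had groups that separated.

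Among the red cell members, KLF1 was bright and close to level. Its only probe set, 210504_at, read 8.72, 8.59 and 8.57 in CA and 8.68, 8.66 and 8.73 in DMSO. CA arrays 2 and 3 lay below the DMSO arrays and CA array 1 within them. The change was -0.06 (-0.19 to 0.07; limma adjusted p = 0.781), and without CA array 1 it was -0.11.

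KLF3 was higher in CA on all 4 tested probe sets, by unequal amounts. Probe set 222913_at read 4.74, 4.72 and 4.68 in CA and 4.65, 4.41 and 4.41 in DMSO, a change of 0.22 (0.05 to 0.40; adjusted p = 0.413 by limma). Its CA arrays lay above all DMSO arrays, with DMSO array 1 close behind. Probe set 219657_s_at read 6.16, 6.01 and 6.01 in CA and 5.94, 5.94 and 5.91 in DMSO, and also separated, with a change of 0.13 (0.0011 to 0.26). The brightest KLF3 probe set, 225133_at, changed by only 0.04 (-0.07 to 0.15), an interval that leaves out 0.22. The change on 225140_at was 0.17 (-0.04 to 0.38) and rested on CA arrays 1 and 2, since CA array 3 read 6.11 against 6.07 to 6.19 in DMSO. Without CA array 1 it was 0.092, and without CA array 3 it was 0.26.

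KLF2 lay not far above the filter and KLF4 below it. The KLF2 probe set 219371_s_at averaged 4.14 ± 0.15 in CA and 4.20 ± 0.11 in DMSO (SD, n = 3 each), and 226646_at averaged 3.68 ± 0.12 in CA and 3.58 ± 0.24 in DMSO. Their changes had opposite signs, -0.06 (-0.28 to 0.16) and 0.09 (-0.22 to 0.40), and the arrays of the groups were interleaved. KLF4, one of the factors used to reprogram cells to pluripotency, had no probe set above the filter. Its brighter one, 220266_s_at, read 3.12, 3.54 and 3.31 in CA and 3.20, 3.31 and 3.41 in DMSO, in a range where RMA compresses differences. Over the 7 dim KLF probe sets, none of which was tested, the difference between group means ran from -0.11 to 0.24 and 0 had groups that separated. The share of separated groups over all probe sets below the filter was not counted.

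**Figure D2:**
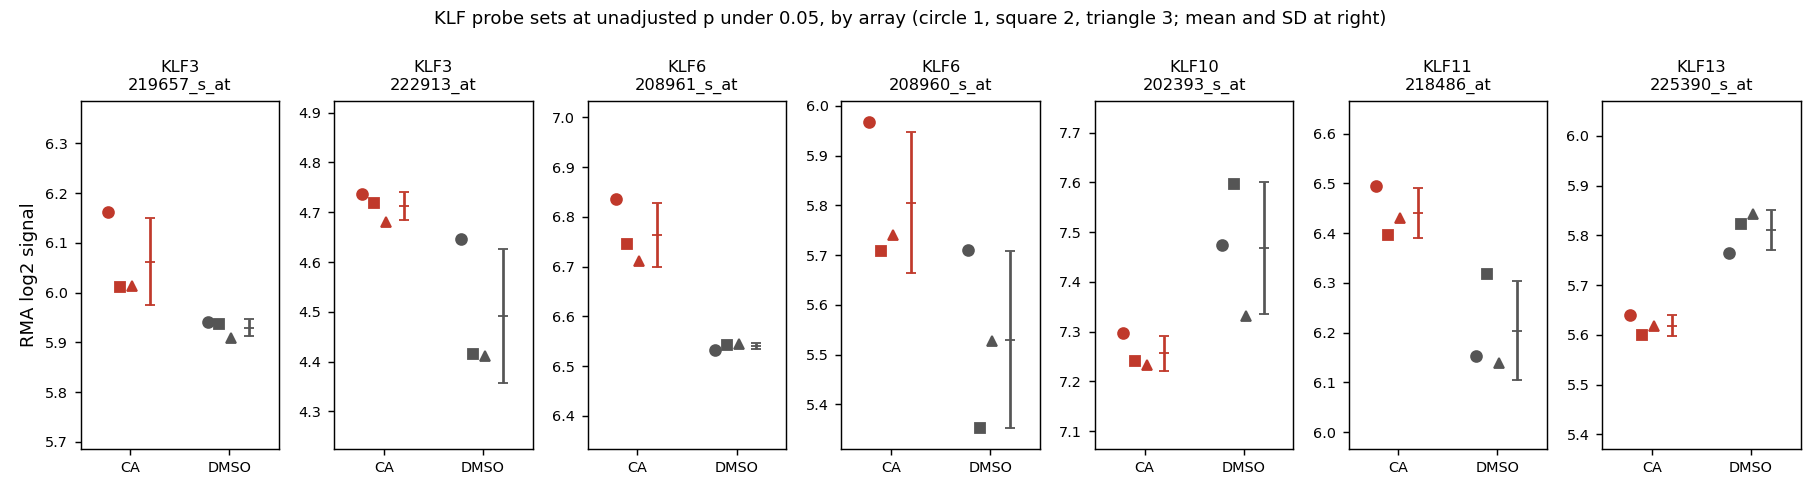
RMA log2 signal of the 7 KLF probe sets at unadjusted p under 0.05, by array. CA arrays (red) stand left of DMSO arrays (grey), symbols give the replicate number, and the bars at the right of each group are mean and SD (n = 3). All axes span the same 0.7 log2 units. CA and DMSO arrays are apart in every panel except KLF6 208960_s_at.

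Of the 21 tested probe sets, 7 showed no overlap between the CA and the DMSO arrays, 5 with CA higher and 2 with CA lower. They were the probe sets at p under 0.05 with KLF6 1555832_s_at in place of KLF6 208960_s_at. Over all tested probe sets the share was 15.6%, made of 7.09% higher and 8.52% lower. CA array 1 had the highest signal of the CA arrays on 16 of the 21 KLF probe sets, and lay above the DMSO mean on 17, against 14 for each of CA arrays 2 and 3. These by-array counts were not taken over all tested probe sets, so they cannot be called particular to the KLF values. Without CA array 1, 4 KLF probe sets kept a p under 0.05, while the share over all tested probe sets was 11.3%. They were KLF6 208961_s_at with a change of 0.19, KLF11 218486_at with 0.21, KLF13 225390_s_at with -0.20 and KLF10 202393_s_at with -0.23. Without it the changes of KLF6 208960_s_at (0.19), KLF3 222913_at (0.21) and KLF3 219657_s_at (0.08) had p values of 0.125, 0.0543 and 0.110. KLF6 208961_s_at, KLF11 218486_at and KLF13 225390_s_at had an unadjusted limma p under 0.05 in all 6 fits that left out 1 array. These fits share most of their arrays, and the share of all tested probe sets with such a p in every fit was not counted. It thus cannot be called particular to the KLF values.

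**Figure D3:**
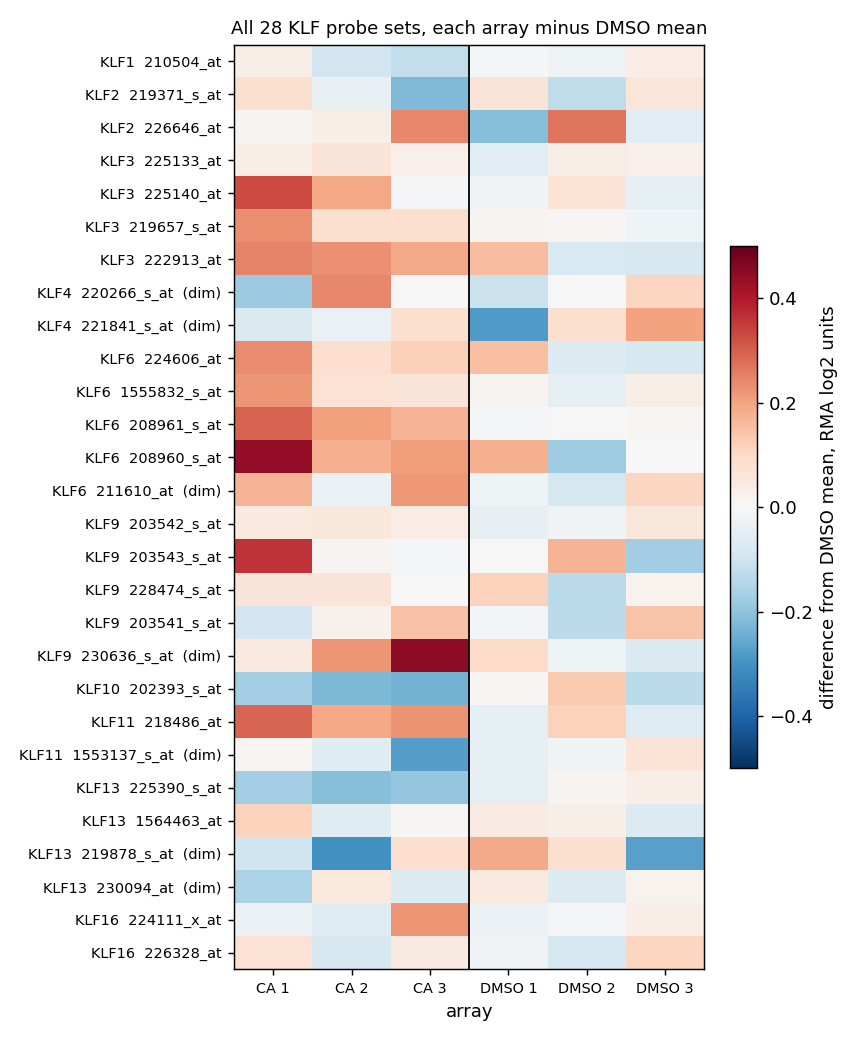
Signal of each of the 28 KLF probe sets on each array minus its DMSO mean, in RMA log2 units, with CA arrays left of the line and DMSO arrays right of it (dim marks the 7 probe sets that were not tested). Red runs across the CA arrays for probe sets that include the 4 tested KLF6 ones, KLF11 218486_at, KLF3 222913_at and KLF3 219657_s_at. Blue runs across them for KLF10 and KLF13 225390_s_at. The dim KLF9 230636_s_at is also red there, with the largest difference shown (0.445, on CA array 3). CA array 1 is the deepest red for the 4 tested KLF6 probe sets.

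Direction depended on how arrays were put on a common scale for some members. Scaling to the 3' probe sets of the added poly-A control RNAs added 0.21 to every change and moved the median over all tested probe sets to 0.20. On that scale KLF13 225390_s_at was at 0.017 and KLF10 at -0.0018, while KLF6 208961_s_at was at 0.43 and KLF11 at 0.45. KLF1 was at 0.14 and KLF2 219371_s_at at 0.15. Scaling to the 5' probe sets of the same controls added 0.041 and turned no KLF direction. On that scale KLF13 225390_s_at was at -0.15 and KLF10 at -0.17, with unadjusted limma p of 0.129 and 0.128, and 5 KLF probe sets had a p under 0.05, against 5.49% of all. Relative to the median probe set, which moved by the same amount, the changes stay as given above.

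Genes around the KLF family are given by the tested probe set with the highest mean of each gene, and none of the 8 related lists held a called gene. Over all 12810 measured genes, 0.0859% were called and 8.61% had an unadjusted p under 0.05. Of the other KLF genes, 3 of 8 were measured, and KLF15, a glucocorticoid-responsive metabolic regulator, had 4.99 in CA and 4.64 in DMSO. Its change of 0.34 (SE 0.12, limma adjusted p = 0.454) was larger than that of any member, while KLF17 had 0.07. The related SP factors, which bind the same GC boxes, all had negative changes in the 7 measured, with a median of -0.12. Of all 12810 measured genes 7234 had negative changes, and 2 of the 7 SP genes had an unadjusted limma p under 0.05. SP4 had 7.19 in CA and 7.49 in DMSO, a change of -0.30 (SE 0.05, limma adjusted p = 0.136). SP8 lay not far above the filter, at 3.92 in CA and 4.17 in DMSO, with -0.25 (SE 0.07, limma adjusted p = 0.357). SP1 had -0.04 and SP3 -0.12.

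Differences in the genes of partner proteins were small. Of 10 corepressor and coactivator genes, 1 had a p under 0.05, the acetyltransferase gene CREBBP at -0.18 (SE 0.07, limma adjusted p = 0.503). Its relative EP300 had -0.07, SIN3A had -0.03 and CTBP1 -0.02. On the ERK5 path, 1 of 7 genes had a p under 0.05. This was MEF2C, a factor through which ERK5 acts, with 10.0 in CA and 9.72 in DMSO, a change of 0.32 (SE 0.04, limma adjusted p = 0.0943), while the ERK5 gene MAPK7 had 0.15 (SE 0.08). All 4 measured TGF-beta receptor and SMAD genes had positive changes, against 43.5% of all measured genes. Of the 4, 2 had a p under 0.05: TGFBR1 at 0.17 (SE 0.04) and SMAD3 at 0.18 (SE 0.07). Of 4 measured glucocorticoid-related genes 0 had a p under 0.05, with DUSP1 at -0.13 and TSC22D3 at 0.17.

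Genes known as KLF targets went both ways. Of 11 measured KLF1 targets, 6 changes were positive and 5 negative with a median of 0.00, and 3 had a p under 0.05. They were the cell cycle factor E2F2 at -0.20 (SE 0.04), the transferrin receptor gene TFRC at 0.12 (SE 0.04) and the CDK inhibitor gene CDKN1B at -0.17 (SE 0.06). The alpha-globin chaperone gene AHSP had -0.06 and the heme synthesis gene ALAS2 had 0.03. Of 4 measured targets of KLF2, KLF4 and KLF6, 2 had a p under 0.05, the CDK inhibitor genes CDKN1A at -0.21 (SE 0.05) and CDKN1C at -0.18 (SE 0.07). The vessel genes ENG (0.23, SE 0.12) and NOS3 (0.18, SE 0.09) had positive changes that did not pass.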

How the data were processed

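RNA of 6 wells was measured on 6 arrays (3 CA, 3 DMSO). The authors deposited log2 expression values made with RMA in the affy package, per the submitters' processing notes. The package version is not given in the sources used here. RMA gives all arrays 1 distribution, so a shift of most transcripts is not visible, and dim signals are compressed. RNA was isolated with either of 2 kits per the labels' protocols, which do not say which was used where.

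Left out were 62 control probe sets. Symbols came from the platform annotation: 41091 probe sets had 1 symbol, 1801 several and 11721 none there. Probe sets below the 50th percentile of the mean (3.487) were not tested. CA was compared with DMSO by limma 3.58.1 (lmFit and eBayes, R 4.3.3), 2-sided, Benjamini-Hochberg over 27307 probe sets, threshold 0.05. The fit was tested on simulated data. The members and lists were chosen with earlier results of these data known. Every member probe set is reported. From each related list, called genes or the 2 genes with the smallest p are named, and other list genes were chosen after their values were seen. Precision is limited by the number of arrays, and protein sequences were not used here. Alternatives covered the filter, variance model, normalization, array weights, probe set type, replicate block and each array left out.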

Additional observations from a re-analysis of the deposited data

How the results depend on the processing

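The KLF call count of 0 was the same in 16 of 17 alternatives. With scaling to the 3' poly-A controls, 8 KLF probe sets and 2 KLF genes were called, 16 KLF probe sets had a p under 0.05 (51% of all tested probe sets did), and 3594 probe sets were called in all, because that scaling adds a constant to every change. Over all probe sets, 26 were called as reported, 5 without a filter, 162 when the filter was set to the 75th percentile, 285 with a prior variance following the mean, 17 with a robust prior, 1 without probe sets ending _s_at or _x_at, and 2 to 5 with 1 array left out. The count of KLF probe sets at p under 0.05 was 7, with 3 to 6 when 1 array was left out (4 without CA array 1 and without DMSO array 3, 3 without DMSO array 2). Shares over all tested probe sets were 9.31% in the main fit and 7.67% to 11.3% with 1 array left out. The KLF count was 2 without _s_at and _x_at probe sets, where only 9 KLF probe sets are left and the share over all was 8.59%. With quantile normalization run again it was 9, against 9.75% of all tested probe sets. The labels give both groups the replicate numbers 1 to 3, and deviations of same-numbered arrays correlated at -0.07, 0.01 and 0.06. These values show no strong shared deviation over all tested probe sets, but they cannot decide whether the wells were paired. With the replicate block 0 probe sets were called in all (2485 at unadjusted p under 0.05 by limma), and 0 KLF probe sets, with 7 at p under 0.05. In that fit KLF6 224606_at had a limma p of 0.0361 and KLF6 208960_s_at 0.00451, while KLF3 219657_s_at rose to 0.0604 and KLF6 208961_s_at to 0.00976.

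Reversals were as follows. Scaling to the 3' controls gave KLF1 210504_at 0.14, KLF2 219371_s_at 0.15 and KLF13 225390_s_at 0.017. Array weights gave KLF13 1564463_at -0.012 and centring gave KLF16 226328_at -0.0042. With 1 array left out, KLF2 219371_s_at ranged from -0.13 to 0.023, KLF2 226646_at from -0.012 to 0.23, KLF9 228474_s_at from -0.024 to 0.10, KLF9 203541_s_at from -0.041 to 0.094, KLF13 1564463_at from -0.028 to 0.060, KLF16 224111_x_at from -0.048 to 0.096 and KLF16 226328_at from -0.034 to 0.064. The cause was not tested. All tested probe sets of KLF3, KLF6, KLF10 and KLF11 kept their sign in every alternative run, though KLF10 was at -0.0018 with scaling to the 3' controls. Alternatives in the filter, variance model, probe set type and replicate block leave the change itself as it was, so they cannot turn its sign.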

Other observations

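Transcripts that tracked KLF6 and KLF13 most closely over the 6 arrays are given as a description, since 6 points fit many of the 22974 probe sets compared. For KLF6 208961_s_at the closest were those of IL10RA, the interleukin 10 receptor gene (r = 0.999), SYS1 (0.996) and CCHCR1 (0.995), and 144 probe sets had r above 0.95. IL10RA had 5.09 in CA and 4.84 in DMSO, a change of 0.25 (SE 0.05, limma adjusted p = 0.232). For KLF13 225390_s_at they were E2F2 (0.996), the nuclear non-coding RNA MALAT1 on probe set 231735_s_at (0.993) and ALKBH3 (0.993), and 149 probe sets had r above 0.95. MALAT1 had 5.30 in CA and 5.88 in DMSO on that probe set, a change of -0.58 (SE 0.06, limma adjusted p = 0.0437).

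The antisense transcript KLF3-AS1, looked at after the member values were seen, had 1 tested probe set, 1570414_x_at, with 4.06 ± 0.12 in CA and 4.14 ± 0.06 in DMSO (SD, n = 3 each). Its change of -0.08 (SE 0.07, limma adjusted p = 0.805) was opposite in sign to the KLF3 probe sets. KLF9-DT, a transcript named for the KLF9 locus, was below the filter at 2.88 in CA and 2.85 in DMSO.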
